A study of Mus musculus with 20 samples.

Results

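The comparison described here is that of cerebellum from mice carrying a null mutation of NHE1 with pooled cerebellum from wild-type mice. It was measured on 5 of the 20 two-colour arrays of the series, chosen by their titles: arrays 1, 2 and 3, with null RNA in channel 1, and the dye-swapped arrays DS1 and DS2, with null RNA in channel 2. Arrays of the same number were averaged, which gave 3 replicates. The other 15 arrays compare cortex, hippocampus and brain stem-diencephalon of null mice with a wild-type pool of the same region, and are used here only where cerebellum was set against them. All RNA had been amplified. Strain, age and sex of the mice and the make-up of the pools are not given in the labels, nor whether a number stands for 1 mouse, and the p-values therefore reflect only how far these arrays scatter, which may be technical. Because every array holds the pooled wild-type RNA as its other channel, each value is a ratio of null over wild-type pool, and the spread between wild-type mice was not measured.

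NHE1 is the widely expressed exchanger of the plasma membrane that takes up sodium and expels protons, and so sets cell pH and volume. Mice without it are known for ataxia and seizures, and the cerebellum, which coordinates movement, is one of the regions in which loss of neurons has been described in them. Its principal neurons are the Purkinje cells, which carry its output, and the small and very numerous granule cells, with Bergmann glia as specialised astrocytes beside them.

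The direction of the ratios was taken from the channels named in the labels. Which channel is the numerator and the base of the logarithm are not stated, so "higher" and "lower" in null cerebellum are the likely direction, and the values are read as log2. Because the deposited values are ratios, they give no level of a gene in a tissue, and the label cerebellum could not be checked against levels of its marker genes.

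The arrays were not alike. DS1 had a value for 6793 probes and the widest spread, with a median absolute deviation of 0.492, against 10774 to 13950 probes and 0.238 to 0.361 on the other 4 cerebellum arrays. DS1 also held nearly the same values as the array labelled brain stem-diencephalon DS2: their r was 0.995 over 6748 probes, and 82.1% of these differed by no more than 0.001 after centring, whereas no other of the 190 pairs of arrays had an absolute r above 0.743. It may be one hybridisation deposited under 2 regions, and the counts of features called are given with this repeated array and without it in either region. For single genes the value without it is given where the call was lost or the ratio moved by more than 1.5 times. After the swapped arrays had been turned, arrays 2 and 3 correlated at 0.74 across probes, DS1 and DS2 at 0.67, arrays 2 and 3 with DS2 at 0.44 and 0.40, and array 1 with DS1 and DS2 at -0.02 and 0.01. Probes are not independent replicates, and arrays of one orientation also share their dye layout. The Y-linked gene Eif2s3y was 1.71 on DS1 and -0.77 on array 1, the array of the same number, and 1.33, 1.59 and 1.44 on arrays 2, 3 and DS2. The other arrays numbered 1 were below 0 like array 1, at -1.36 in cortex, -1.29 and -0.99 in hippocampus and -0.65 and -0.44 in brain stem-diencephalon. Whether DS1 carries the right number cannot be told from the labels. Replicate 1 of cerebellum averages DS1 with array 1, and the fits without the repeated array do not use DS1. The number of DS2 cannot be told either. Ttr, described below, was -0.40 on DS2, against -2.67 on array 2 and -0.23 on array 3, although DS2 correlated slightly more with array 2. Replicate 2 averages array 2 with DS2, also in the fits without the repeated array. The fitted ratio of Eif2s3y, 1.13 ± 0.58 (SE, 3 replicates), did not pass the test (adjusted p = 0.263), and neither did that of Xist, the RNA of the inactive X chromosome, at 0.29 ± 0.11 (adjusted p = 0.141).

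Of the 8319 features tested in null cerebellum, 5255 were genes with a single symbol and 3064 were probes without one. With the repeated array, 255 features (3.07%) had an adjusted p under 0.05 by limma's moderated test, 124 higher (1.49%) and 131 lower (1.57%), and 149 of them were genes. Without it 48 features (0.577%) passed, 10 higher (0.12%) and 38 lower (0.457%). Both fits shared 47 features (0.565%), of which 24 were genes, 6 higher and 18 lower. These 24 genes had the same sign on every cerebellum array with a value, and 13 of them had a value on all 5 arrays. Over all features 26.1% had one sign on every array. The counts also hung on single replicates: 52, 20 and 27 features passed without replicate 1, 2 and 3, and 1026 without the channel 1 arrays of number 1 in every region. Th, Rbm3, Elovl5, Flvcr2, Fat1, Msantd1, Jag1, Khdc1b and Oog3 passed whichever cerebellum replicate was left out, and each of the other 15 genes missed the threshold in at least 1 of these fits. The swapped arrays lay farther from 0 than the others for 209 of the 255 called features and for 5691 of all 8319.

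**Figure D1:**
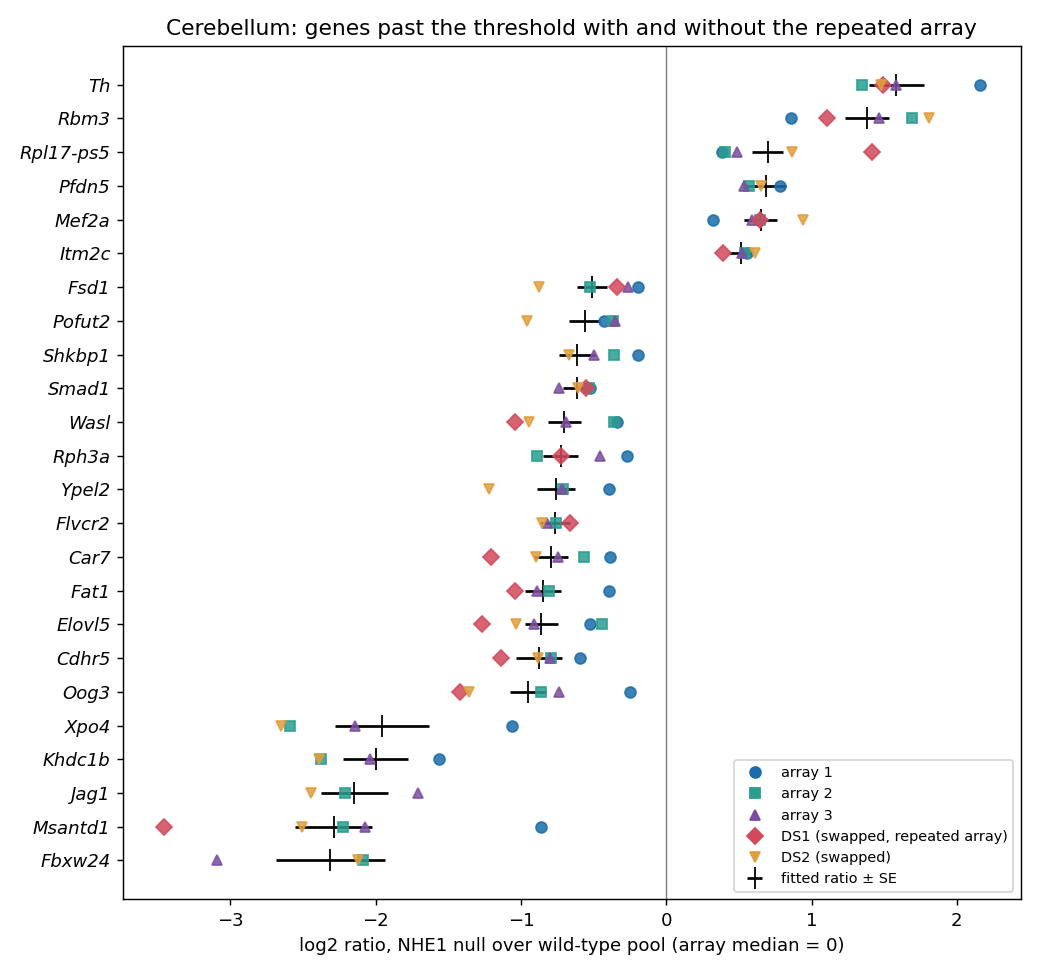
Log2 ratios of null over wild-type pool on each cerebellum array (x axis) for the 24 genes past the threshold with and without the repeated array (rows); black marks are fitted ratios with their SE. Th lies between 1.35 and 2.16 on all 5 arrays and Rbm3 between 0.86 and 1.81, whereas Msantd1, Jag1, Khdc1b, Xpo4 and Fbxw24 lie far below 0.

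The highest named gene was Th, tyrosine hydroxylase, the rate-limiting enzyme of dopamine and noradrenaline synthesis. In null cerebellum its log2 ratio was 2.16, 1.35 and 1.58 on arrays 1, 2 and 3, and 1.49 and 1.47 on DS1 and DS2. All 5 values were well above 0 and array 1 was the highest. The fitted ratio was 1.58 ± 0.19 (SE, 3 replicates) (adjusted p = 0.000935), and 1.60 without the repeated array (adjusted p = 0.00103). The 2 other measured members of the list of 21 genes of catecholamine and serotonin synthesis and transport did not pass the test. They were Maoa, which breaks down monoamines, at 0.23 ± 0.09 (adjusted p = 0.16), and Qdpr, which recycles the cofactor of tyrosine hydroxylase, at 0.13 ± 0.14 (adjusted p = 0.596). Dopamine beta-hydroxylase and the transporters of noradrenaline and dopamine were not measured here, and in tissue with several cell types a higher level per cell and a larger number of cells or fibres holding the RNA cannot be told apart.

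The promoter of Th is shown because that gene had the highest named ratio and because its cyclic AMP response element, through which the factor CREB acts on it, is well known. The 250 bases before its start, from the RefSeq table (GRCm38.p6, chr7:142899996-142900245, minus strand, 5′ to 3′), hold one cyclic AMP response element (TGACGTCA) beginning 45 bases and one GC box (GGGCGG, searched on both strands) beginning 220 bases before the start, both in capitals.
Th: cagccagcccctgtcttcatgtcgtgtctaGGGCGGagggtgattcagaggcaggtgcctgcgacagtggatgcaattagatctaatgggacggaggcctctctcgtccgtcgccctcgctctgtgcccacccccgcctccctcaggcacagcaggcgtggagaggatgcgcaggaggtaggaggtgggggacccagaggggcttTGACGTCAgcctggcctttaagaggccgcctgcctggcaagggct
The response element occurred in 1.55% and the GC box in 32.7% of the 32851 windows of this length in the table, and TATAAA on either strand in 12.4%. The windows of Pfdn5, Mef2a and Itm2c, 3 other genes that were higher, hold none of these letters. These matches describe the sequence and do not show that a factor bound there.

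Rbm3, an RNA-binding protein induced by cooling, was 0.86, 1.69 and 1.46 on arrays 1, 2 and 3, and 1.11 and 1.81 on DS1 and DS2. The 2 arrays numbered 1 were the lowest, and all 5 lay above 0. Its fitted ratio was 1.38 ± 0.15, a 2.60-fold higher level (adjusted p = 0.00086, and 0.00212 without the repeated array). Cirbp, the other cold-inducible RNA-binding protein listed, was between 0.48 and 0.77 on the 5 arrays. Its fitted ratio of 0.55 ± 0.09 passed the test only with the repeated array (adjusted p = 0.0122, against 0.073 without it).

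The other 4 genes that were higher in both fits had smaller ratios. Mef2a, a transcription factor of neurons and muscle, was 0.32, 0.65 and 0.59 on arrays 1 to 3 and 0.64 and 0.94 on DS1 and DS2, with a fitted ratio of 0.65 ± 0.11 (adjusted p = 0.0119). Itm2c, a membrane protein of the BRICHOS family that binds the amyloid precursor protein, varied least, between 0.39 and 0.61 on the 5 arrays, with a fitted ratio of 0.51 ± 0.08 (adjusted p = 0.00628). Pfdn5, a subunit of the prefoldin chaperone that helps tubulin and actin to fold, had 0.78, 0.57, 0.53 and 0.65 on arrays 1, 2, 3 and DS2 and no value on DS1 (fitted ratio 0.69 ± 0.14, adjusted p = 0.0232). Rpl17-ps5 is a pseudogene of a ribosomal protein, and its probe cannot be told apart from its parent gene. It was 0.38 to 0.49 on arrays 1 to 3 but 1.42 and 0.86 on DS1 and DS2, and its fitted ratio was 0.70 with the repeated array and 0.56 without it.

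Among the 24 genes called in both fits, the 5 lowest lay at fitted ratios between -2.31 and -1.96. Jag1, a membrane ligand of Notch receptors, was -2.21, -1.71 and -2.44 on arrays 2, 3 and DS2, the only cerebellum arrays with a value, so that its fitted ratio of -2.15 ± 0.23 rests on 2 replicates (adjusted p = 0.00086). Fbxw24, an F-box protein, likewise had values on arrays 2, 3 and DS2 only, at -2.09, -3.09 and -2.12. Msantd1, a protein with a Myb/SANT-like domain, had values on all 5 arrays, at -0.86, -2.23, -2.07, -3.46 and -2.51 on arrays 1, 2, 3, DS1 and DS2. Khdc1b, of a family with KH domains expressed in the germ line, was -1.56, -2.37, -2.04 and -2.39 on arrays 1, 2, 3 and DS2. Xpo4, a nuclear transport receptor, was -1.06, -2.59, -2.14 and -2.65 on the same arrays. Array 1 was the nearest to 0 for the 3 genes it measured. These 5 genes were low in the other regions too. In cortex, hippocampus and brain stem-diencephalon the fitted ratios were -0.91, -2.05 and -2.01 for Jag1, and -1.13, -2.14 and -2.39 for Msantd1. They were -1.10, -1.76 and -2.06 for Khdc1b, -0.82, -2.30 and -2.08 for Xpo4, and -3.21, -1.79 and -1.55 for Fbxw24. All but Fbxw24 were nearest to 0 in cortex.

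For Xpo4 and Khdc1b, other probes of the same gene did not share these ratios. Besides its tested probe, Xpo4 had a probe with a median of 0.09 over 3 cerebellum arrays, and Khdc1b had probes with medians of 0.15 over 3 arrays and -0.20 over 2. These had too few values to enter the test. The ratios of Xpo4 and Khdc1b therefore belong to single probes that disagree with others of the same gene. Of the 23 probes without a gene name that passed in both fits, 19 were lower, and 12 of those lay between -4.63 and -1.58. Among them, probe 4609 was at -0.72, -1.98 and -2.19 in cortex, hippocampus and brain stem-diencephalon, and probe 5701 at -0.84, -2.04 and -2.19. These profiles lay near those of Jag1, Msantd1, Khdc1b and Xpo4. Other probes differed, such as probe 4526 at -4.39, -4.25 and -3.49. Whether such probes and genes share one signal was not tested.

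The other 13 genes that were lower in both fits had fitted ratios between -0.95 and -0.51. Elovl5, which lengthens polyunsaturated fatty acids, was -0.53, -0.44 and -0.91 on arrays 1 to 3 and -1.27 and -1.04 on DS1 and DS2 (fitted ratio -0.86 ± 0.12, adjusted p = 0.00133). Car7, a cytosolic carbonic anhydrase of neurons that interconverts carbon dioxide and bicarbonate, was -0.39, -0.57 and -0.75 on arrays 1 to 3 and -1.21 and -0.90 on DS1 and DS2 (fitted ratio -0.79 ± 0.12, adjusted p = 0.00478). In both genes the swapped arrays lay farther from 0 than the others, and the groups by orientation did not overlap. Flvcr2, a transporter of the heme exporter family that carries choline across the brain's vessels, varied least, between -0.86 and -0.66 on the 4 arrays with a value (fitted ratio -0.76 ± 0.10, adjusted p = 0.00123). Smad1, which carries bone morphogenetic protein signals to the nucleus, was between -0.74 and -0.53 on all 5 arrays (fitted ratio -0.62 ± 0.10, adjusted p = 0.00688).

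Rph3a, rabphilin 3A, a Rab effector of synaptic vesicles, was -0.27, -0.89, -0.46 and -0.73 on arrays 1, 2, 3 and DS1 and had no value on DS2 (fitted ratio -0.73 ± 0.12, adjusted p = 0.00808). Wasl, which starts actin branching, had a fitted ratio of -0.70 ± 0.11, and Fat1, a very large protocadherin, one of -0.85 ± 0.12. Pofut2, which adds fucose to thrombospondin repeats, was at -0.56, Fsd1, a protein bound to microtubules, at -0.51, Shkbp1, which binds an adaptor of receptor endocytosis, at -0.61, and Ypel2, a small zinc-binding protein, at -0.76. Oog3, known from oocytes, was at -0.95 and Cdhr5, a cadherin-related protein of epithelial microvilli, at -0.88. All had adjusted p-values under 0.05 in both fits.

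Another 208 features passed only with the repeated array, and 1 only without it. Among the highest of these genes was Nfix, a nuclear factor I protein needed in cerebellar granule neuron development, at 0.29, 0.97 and 1.39 on arrays 1 to 3 and 1.36 and 1.73 on DS1 and DS2. Its fitted ratio of 1.21 ± 0.31 had an adjusted p of 0.0477, and of 0.17 without the repeated array. Rad21, a cohesin subunit, was at 0.99, Slc2a4, the insulin-responsive glucose transporter, at 0.91, Cdk8, a kinase of the Mediator complex, at 0.88, and Rspo2, an activator of Wnt signalling, at 0.72, with adjusted p-values of 0.0713 to 0.132 without that array. Among the lowest were Pabpn1, the nuclear poly(A)-binding protein, at -1.71, and Slc16a13, a monocarboxylate transporter, at -1.60. Without the repeated array their adjusted p-values were 0.113 and 0.0856. Both had another probe below the filter at a median nearer to 0, -0.38 for Pabpn1 and 0.12 for Slc16a13. Ywhag, a 14-3-3 protein of neurons, was at -0.81.

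Ttr, transthyretin, the thyroid hormone carrier made by the choroid plexus, passed with the repeated array (fitted ratio -1.05 ± 0.21, adjusted p = 0.0216) and not without it (-0.74, adjusted p = 0.321). Its values were 0.58, -2.67 and -0.23 on arrays 1, 2 and 3 and -2.72 and -0.40 on DS1 and DS2. They did not share one sign, and 2 of the 5 arrays lay far below the rest. The choroid plexus and meninges list had 6 of 21 members measured, with a median of -0.07, and Ttr was the only one to pass.

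**Figure D2:**
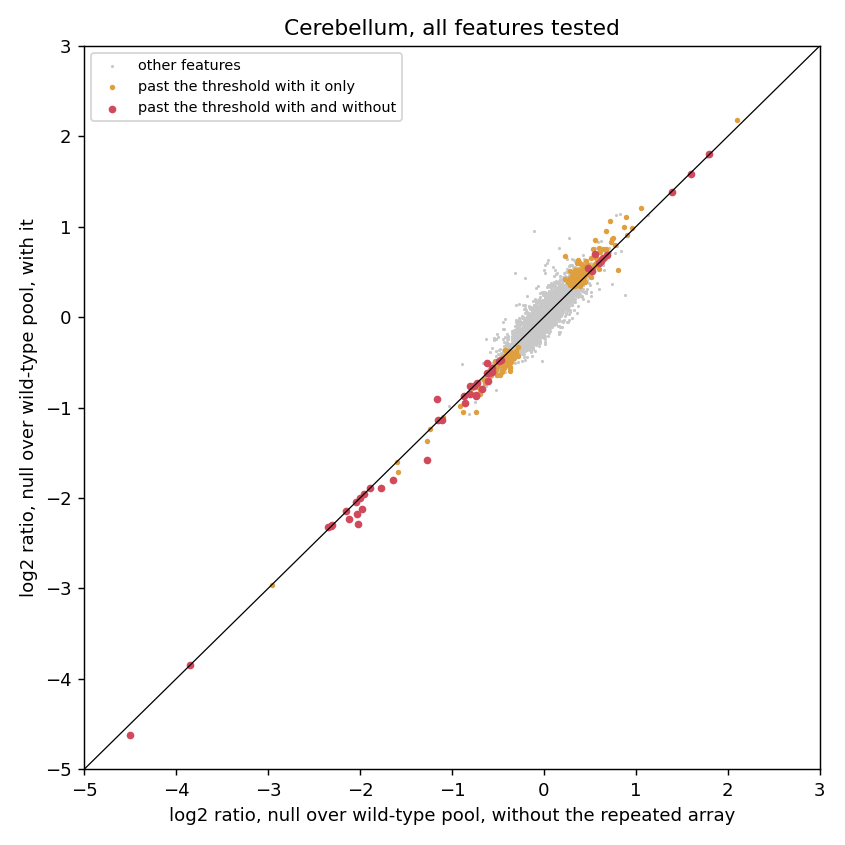
Fitted log2 ratio of null over wild-type pool in cerebellum without the repeated array (x axis) and with it (y axis) for all 8319 features; the line marks equal values. The 47 features past the threshold in both fits lie mostly below -0.5, and the 208 that passed only with the repeated array lie on both sides of 0.

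Gene lists are described by how many members passed and by the median of their fitted ratios. Over all features 255 of 8319 passed (3.07%), and 48 (0.577%) without the repeated array. At that share, no call or 1 call in a short list is near what all features show. The median over all features was 0.01, and 4298 of 8319 lay above 0. Cytosolic ribosomal proteins were shifted upward: 54 of the 66 measured lay above 0, with a median of 0.16, and the medians of replicates 1, 2 and 3 were 0.28, 0.13 and 0.14. Rpl3, Rpl6, Rpl17, Rps4x and Rps3a1 passed the test, at 0.35 to 0.43, and none passed without the repeated array, where the median was 0.15. Rpl3, of the large subunit, was 0.60, 0.49 and 0.67 on arrays 1 to 3 and 0.31 and 0.30 on DS1 and DS2 (adjusted p = 0.0304). Such genes have many near-identical pseudogenes, which the probes cannot tell apart. The shift was not particular to cerebellum. In hippocampus 62 and in brain stem-diencephalon 61 of the 66 lay above 0, each with a median of 0.16, and in cortex 32 (median -0.001). The ratio was higher in cerebellum than in hippocampus for 29 of 66, than in brain stem-diencephalon for 30 and than in cortex for 54.

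Among 36 translation factors the median was 0.08. Eef1a1, which brings aminoacyl-tRNA to the ribosome, was higher at 0.36 ± 0.09 (adjusted p = 0.0474) and Eif3c, a subunit of an initiation factor, at 0.51 ± 0.12 (adjusted p = 0.037), and Pabpn1 was lower. None of these 3 passed without the repeated array, where Eif3c was at 0.28.

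Subunits of oxidative phosphorylation lay below 0 in 35 of 47 cases, with a median of -0.15. Cox8a, a small subunit of cytochrome c oxidase, was the only one to pass. It was -0.43, -0.61 and -0.82 on arrays 1 to 3 and -1.30 and -1.02 on DS1 and DS2 (fitted ratio -0.85 ± 0.17, adjusted p = 0.0207, and 0.0945 without the repeated array). The subunits of complex I Ndufc1, at -0.51 ± 0.13, and of the ATP synthase Atp5l, at -0.44 ± 0.12, had adjusted p-values of 0.0533 and 0.0592.

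For the genes of acid-base handling, 7 of 26 listed transporters and partners were measured, with a median of -0.27, and 6 lay below 0. Slc16a13, described above, was the only one to pass. Tesc, which binds NHE1, was at -0.37 ± 0.16 (adjusted p = 0.196), Slc9a3r1, a scaffold of sodium-proton exchangers, at -0.27 ± 0.14 (adjusted p = 0.276), and the lactate exporter Slc16a3 at -0.30 ± 0.15 (adjusted p = 0.239), which was -0.09 without the repeated array. Of 6 measured carbonic anhydrases Car7 alone passed. Car2, the abundant form of glia, was at -0.09 ± 0.13, a fitted ratio that includes the orientation term. Its values were lower, at -0.15, -0.19 and -0.52 on arrays 1 to 3 and -0.19 on DS2. Without that term Car2 was at -0.29 and did not pass either (adjusted p = 0.211). The hypoxia-induced Car9 was at 0.27 ± 0.12 (adjusted p = 0.213), or 0.17 without the repeated array. Of 10 subunits of the vacuolar proton pump, which acidifies vesicles and lysosomes, Atp6v0b passed at -0.64 ± 0.14 (adjusted p = 0.0368, and 0.132 without the repeated array), whereas Atp6v1a was at 0.43 ± 0.15 (adjusted p = 0.123) and the list's median at -0.02. None of 8 sodium and calcium pumps and exchangers passed.

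Genes of cholesterol synthesis had a median of -0.20 over 11 measured genes, 8 of them below 0. The list includes Srebf1 and Scap, which are not enzymes. The median was -0.11 without the repeated array and -0.04, -0.10 and -0.12 without replicate 1, 2 and 3. Dhcr7 counts as above 0 by its fitted ratio of 0.28, which includes the orientation term. Its values were -0.21, -0.03, -0.24 and -0.13 on arrays 1, 2, 3 and DS2. Mvd, mevalonate diphosphate decarboxylase, passed at -0.72 ± 0.18 (adjusted p = 0.0463, and 0.186 without the repeated array). Hmgcs1, which makes the precursor of mevalonate, lay between -0.42 and -0.23 on all 5 arrays (fitted ratio -0.31 ± 0.09, adjusted p = 0.0609). These values are means of 2 probes that disagreed, with medians over the 5 arrays of 0.102 and -0.716. Of 9 genes of Notch signalling, Jag1 alone passed. Of 40 chaperones, Dnajb1, a heat-inducible partner of Hsp70, was lower at -0.45 ± 0.11 (adjusted p = 0.0381, and 0.16 without the repeated array), with values of 0.07, -0.13 and -0.15 on arrays 1 to 3 and -0.95 and -0.84 on the swapped arrays. Of 36 cytoskeletal and 14-3-3 genes, Ywhag and Marcksl1, an actin regulator, were lower (-0.81 and -0.47) and Epb41l1, a membrane skeleton protein of neurons, higher at 0.76. None of these 3 passed without the repeated array, with adjusted p-values of 0.169 for Ywhag, 0.0952 for Marcksl1 and 0.14 for Epb41l1. Rph3a was the only one of 10 genes of the synaptic vesicle cycle to pass.

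No member passed in several lists, beside 3.07% of all features. These included 45 genes of the proteasome and ubiquitin (median 0.04), 25 of glutathione and oxidative stress (0.09) and 13 of apoptosis (0.02). They also included 8 genes of the circadian clock (0.08), 6 of glutamate signalling (0.08) and 7 immediate early genes (0.17). A list of 3 voltage-gated cation channels was at 0.22, or 0.07 without the repeated array. Fos, induced by neuronal activity, was 0.28, 0.70, 0.49 and 0.79 on arrays 2, 3, DS1 and DS2 (fitted ratio 0.58 ± 0.16, adjusted p = 0.061). Mt2, a metallothionein, was at 0.68 ± 0.22 (adjusted p = 0.0987). One of 29 genes of the cell cycle, replication and cohesin passed (Rad21), and one of 16 of glycolysis and glucose transport (Slc2a4).

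**Figure D3:**
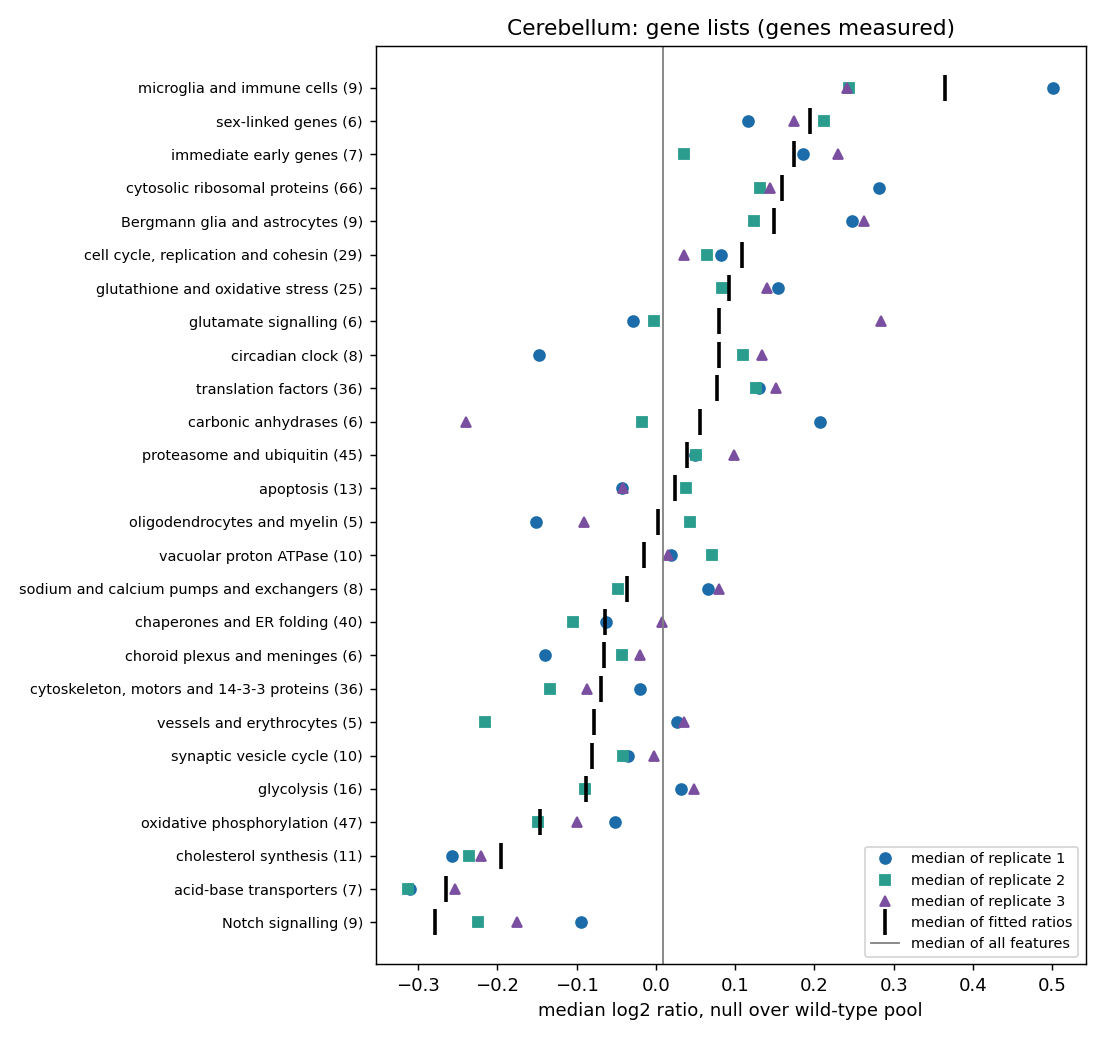
Median log2 ratio of null over wild-type pool in cerebellum (x axis) for lists with 5 or more measured genes (rows, with the number measured); black marks are medians of fitted ratios, coloured points those of replicates 1, 2 and 3, and the grey line the median of all features. Microglia and immune cell genes lie at 0.37, oxidative phosphorylation at -0.15 and Notch signalling at -0.28, and replicate medians scatter widely in short lists.

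Markers of the cerebellum's own neurons were few. Of 24 Purkinje cell markers 4 were measured and none passed. Rora, the nuclear receptor whose loss gives the staggerer phenotype, was at 0.71 ± 0.25 (adjusted p = 0.118), Car8 at 0.27 ± 0.12, Calb1, the calcium buffer calbindin, at 0.09 ± 0.10 and Pcp2 at -0.06 ± 0.17. Car8 was -0.56, 0.01 and 0.04 on arrays 1 to 3 and 1.15 and 0.62 on DS1 and DS2, so that its sign went with orientation, and its ratio without the repeated array was 0.04. Of 21 granule cell markers 3 were measured, Kcnd2 at 0.28 ± 0.12 and Meis1 and Meis2 at 0.00 and -0.14, and none passed. No marker of cerebellar interneurons and deep nuclei entered the test. These counts are too small to say whether a cell type was depleted.

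Glial and immune markers were measured more fully. All 9 measured microglia and immune cell genes, of 27 listed, had a fitted ratio above 0 in null cerebellum, with a median of 0.37 (0.35 without the repeated array), and none passed the test. C1qa, C1qb and C1qc encode the chains of complement C1q. In null cerebellum C1qb was 1.08, 0.36, 0.27 and 0.16 on arrays 1, 2, 3 and DS1, and its fitted ratio was 0.43 ± 0.12 (adjusted p = 0.0605). C1qc was 0.75, 0.28 and 0.22 on arrays 1 to 3 and 0.46 and 0.52 on DS1 and DS2 (fitted ratio 0.38 ± 0.12, adjusted p = 0.0993). C1qa was 0.39, 0.21, 1.08 and 0.51 on arrays 2, 3, DS1 and DS2, and its fitted ratio of 0.58 ± 0.16 (adjusted p = 0.0592) dropped to 0.30 without the repeated array. All cerebellum values of the 3 chains lay above 0. This did not hold for 3 other members, which were above 0 on arrays 1 to 3 and below 0 on the swapped arrays with a value, so that their sign went with orientation. Ctsz, the lysosomal protease cathepsin Z, was 1.06, 0.68 and 0.71 on arrays 1 to 3 and -0.21 and -0.35 on DS1 and DS2. Laptm5, a lysosomal membrane protein of blood cells, was 0.40, 0.27 and 0.17 on arrays 1 to 3 and -0.40 and -0.10 on DS1 and DS2. B2m, the light chain of class I histocompatibility molecules, was 0.47, 0.50 and 0.24 on arrays 1 to 3 and -0.24 on DS2. Lyz2, a lysozyme, was not above 0 on every array either, but its higher values were on the swapped arrays. It was 0.24, 0 and -0.12 on arrays 1 to 3 and 0.76 and 0.998 on DS1 and DS2. Ctsd, the lysosomal protease cathepsin D, was at 0.40 ± 0.13 (adjusted p = 0.0979).

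The same 9 genes had a median of 0.37 in cerebellum, against -0.22 in cortex, -0.09 in hippocampus and 0.26 in brain stem-diencephalon, the region that shares the repeated array. Their ratio was higher in cerebellum than in cortex for 9 of 9, than in hippocampus for 9 of 9, and than in brain stem-diencephalon for 8 of 9, beside 4267, 4216 and 4013 of all 8319 features. For C1qb, cerebellum minus the mean of the other regions was 0.70 ± 0.13, which missed the threshold (adjusted p = 0.0906). Markers of Bergmann glia and astrocytes had a median of 0.15 (0.09 without the repeated array), with 7 of 9 above 0, and none passed. Of 5 oligodendrocyte markers Gsn, gelsolin, was lower (-0.48 ± 0.11, adjusted p = 0.0338, and 0.0585 without the repeated array). Mbp, a protein of myelin, was at 0.23 ± 0.19, and at 0.52 without that array, on which it was -0.63. Of 5 markers of vessels and red cells none passed, with the beta-globin Hbb-b1 at 0.71 ± 0.18 (adjusted p = 0.0536) and the endothelial Cdh5 at -0.52 ± 0.31. Markers of neurons outside the cerebellum could be used for 5 genes only, of which Dkk3 passed at 0.41 ± 0.10 (adjusted p = 0.0405, and 0.209 without the repeated array). The part of cell make-up in the other results was not tested.

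**Figure D4:**
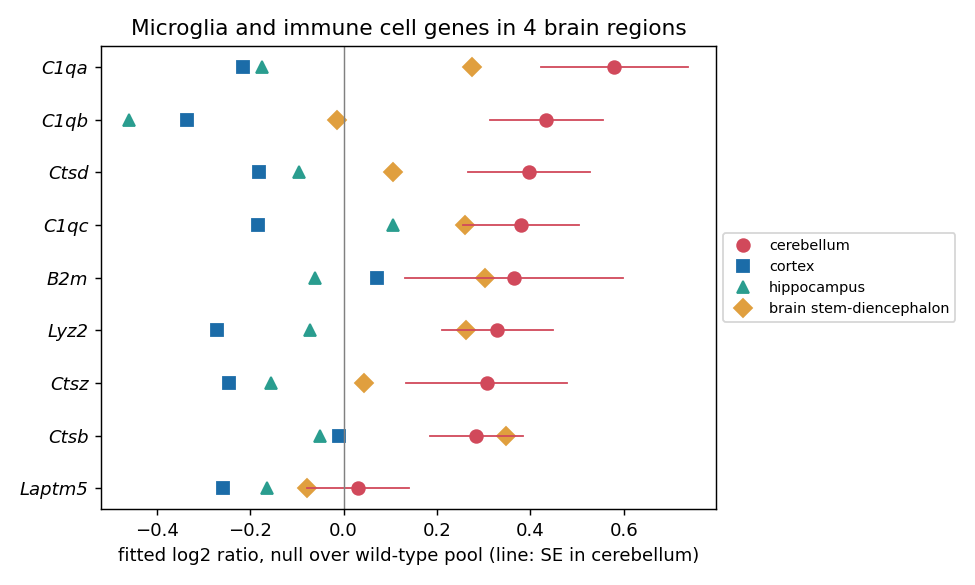
Fitted log2 ratio of null over wild-type pool (x axis) of the 9 measured microglia and immune cell genes (rows) in cerebellum and the other 3 regions; the red line is the SE in cerebellum. Every gene has its cerebellum value above those of cortex and hippocampus, and none of the cerebellum ratios passed the test.

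Most changes in null cerebellum had the same direction elsewhere. Cortex and hippocampus, which share no array with cerebellum, had the sign of cerebellum for all 24 genes called in both fits and for 243 of the 255 called features (95.3%), beside 60.5% of all features. The fitted ratios of all regions come from a joint fit with a shared orientation term, so their signs are not independent. Null RNA of one number may come from the same mouse in several regions. The ratio was farthest from 0 in cerebellum for 18 of the 24 genes, but they had been chosen for their cerebellum values. A direct test of cerebellum minus the mean of the other 3 regions gave 1 feature past the threshold with the repeated array (0.012%) and 3 without it (0.0361%).

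That single feature was probe 6396, which has no gene name here. It was 1.71, 2.25, 1.63 and 1.62 on cerebellum arrays 1, 2, DS1 and DS2, against fitted ratios of -0.34 in cortex, -0.05 in hippocampus and 0.40 in brain stem-diencephalon. The difference was 1.80 ± 0.23 (adjusted p = 0.0343), and 1.88 without the repeated array (adjusted p = 0.000355). No feature passed this test without replicate 1 or without replicate 2. Apart from the repeated array, none of the values of probe 6396 in the other regions overlapped with those of cerebellum.

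Th also differed between regions when the repeated array was left out. Its values of 1.35 to 2.16 in cerebellum stood against -0.15 to 0.74 in cortex and -0.06 to 1.07 in hippocampus. On the brain stem-diencephalon arrays other than the repeated one they were -0.16 to 0.42. Apart from the repeated array, cerebellum overlapped with no other region. On that array, labelled with both regions, Th was 1.49, within the range of the cerebellum arrays. Cerebellum minus the other regions was 1.22 ± 0.22, which missed the threshold with the repeated array (adjusted p = 0.0906) and passed without it, at 1.32 ± 0.18 (adjusted p = 0.0153). Against brain stem-diencephalon alone the difference was 1.27 with that array in both regions (adjusted p = 0.999) and 1.56 without it (adjusted p = 0.0282). Against cortex alone it was 1.12 and missed the threshold in both fits (adjusted p = 0.286, and 0.172 without the repeated array). The same held against hippocampus alone, at 1.26 (adjusted p = 0.352, and 0.176 without the repeated array). Rbm3, in contrast to Th, was at 1.38 in cerebellum, against 1.58, 1.72 and 1.43 in cortex, hippocampus and brain stem-diencephalon.

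Cerebellum minus cortex gave 4 features (0.0481%), all higher in cerebellum, and 3 without the repeated array. Cst3, cystatin C, a secreted inhibitor of cysteine proteases, was the only named gene. It was 0.64, 0.38 and 0.23 on cerebellum arrays 1 to 3 and 0.34 and 0.48 on DS1 and DS2, against -0.70 to -0.20 on the cortex arrays, with no overlap. The difference was 0.79 ± 0.13 (adjusted p = 0.0442), and 0.82 without the repeated array (adjusted p = 0.0796). No feature passed against cortex without replicate 1 or without replicate 2, and 1 passed without replicate 3. The cerebellum ratio itself, 0.36 ± 0.10, did not pass (adjusted p = 0.0563). The other features were probes 6396, 6951 and 13821. Zfp462, a zinc finger protein, was at 0.33 in cerebellum and -0.67 in cortex, with a difference of 0.99 ± 0.19 that missed the threshold (adjusted p = 0.151).

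No feature passed for cerebellum minus hippocampus by limma's test, where 260 had an unadjusted p under 0.05 and the lowest adjusted p was 0.07, nor for cerebellum minus brain stem-diencephalon, where 238 did and the lowest was 0.999. Without the repeated array 2 features (0.024%), both higher in cerebellum, passed in either comparison. The difference to hippocampus was -1.73 ± 0.28 for Ttr (adjusted p = 0.0783), whose cerebellum arrays disagreed among themselves, and 0.91 ± 0.18 for Prkcd, a protein kinase C (adjusted p = 0.2). Prkcd was at -0.04 in cerebellum and -0.95 in hippocampus. Without the repeated array it was at -0.17 in cerebellum, and its difference to hippocampus, 0.80, missed the threshold too. Pairing of cerebellum with hippocampus by replicate number was found in these data and is not stated in the labels. Both regions have the same dye layout by number, so shared mice and shared layout cannot be told apart. The numbers of DS1 and DS2 are also in doubt. With the replicate number as a block in the fit of all regions, 6 features (0.0721%) passed, and 5 (0.0601%) without the repeated array. That block also covered cortex and brain stem-diencephalon. Pairing of these with cerebellum could not be decided, because the replicate averages compared include the repeated array. The named genes among the 6 were C1qb, at 0.88 ± 0.13 (adjusted p = 0.0151, and 0.046 without the repeated array), and Ttr (adjusted p = 0.00976, and 0.65 without it). Th passed this blocked test only without the repeated array, at 1.23 ± 0.20 (adjusted p = 0.0439).

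**Figure D5:**
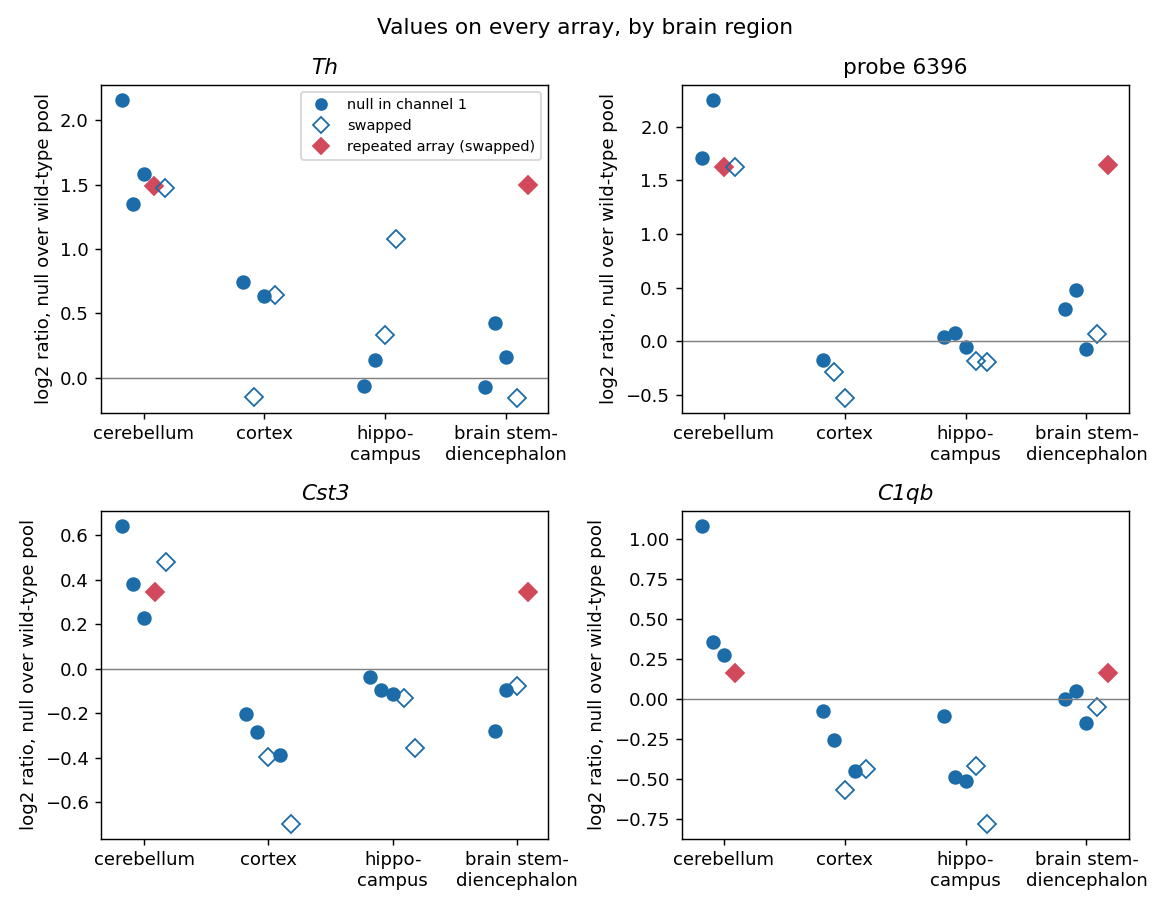
Log2 ratio of null over wild-type pool (y axis) on every array of the 4 regions (x axis) for Th, probe 6396, Cst3 and C1qb; filled circles are arrays with null RNA in channel 1, open diamonds swapped arrays, and red diamonds the array found in 2 regions. Th and probe 6396 lie above 1.3 on all cerebellum arrays with a value, and the red point in brain stem-diencephalon lies with the cerebellum arrays for Th, probe 6396 and Cst3.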

How the data were processed

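The values are the authors' deposited ratios of 2-colour cDNA arrays of 15245 probes, read as log2. How background and dyes were corrected, the log base and the channel order: not given in the sources used here. Ratios hold no signal or background. The table that pairs probes with GEO's annotation named 1 gene for 9604 probes, several for 213 and none for 5428. Symbols were updated by Entrez ID for 9496.

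Swapped arrays were multiplied by -1, each array was centred on its median (0.01 to 0.03 for cerebellum as deposited), probes of a gene were averaged, and arrays of one number in a region were averaged. Features with values on fewer than 3 arrays in any region, or on no array of one orientation there, were left out. limma 3.58.1 (R 4.3.3) fitted all 4 regions, 13 replicates in all, with a term per region and one for orientation, eBayes moderation and Benjamini-Hochberg adjustment over 8319 features (threshold 0.05). The shared fit was used because cerebellum alone leaves few degrees of freedom. Precision is limited by the few arrays. The fit was checked on simulated data. Deviations of same-numbered replicates from their region means correlated at 0.33 to 0.38 between cerebellum and hippocampus. This was counted as pairing found in the data and not stated in the labels. With cortex the correlations were -0.00 to 0.25 and with brain stem-diencephalon -0.03 to 0.43, which were not counted so. They cannot decide whether numbers pair there, because the averages include the repeated array, whose number is in doubt. Cerebellum, hippocampus and brain stem-diencephalon have the same orientations by number, so the check cannot tell shared mice from a shared dye layout. Members and gene lists were chosen with earlier results of these data known.

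Named genes were those past the threshold with and without the repeated array, the 12 highest and 12 lowest called with one sign in every replicate, up to 4 with the smallest p per list or regional difference, and the sex-linked, cold-inducible and catecholamine genes. The targeted gene is not reported here. Genes without a single symbol, RIKEN clones and predicted models were counted only. Ribosomal proteins were taken by symbol pattern.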

Additional observations from a re-analysis of the deposited data

Results flagged for a closer look

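The ratio differed between regions by a test of the difference itself for 4 features. Probe 6396, without a gene name here, exceeded the mean of the other 3 regions by 1.80 and cortex by 2.15 on the log2 scale, and had no value on cerebellum array 3. Probe 6951 exceeded cortex by 1.05, with cerebellum values between 0.22 and 0.77. Cst3 exceeded cortex by 0.79. Probe 13821 exceeded cortex by 1.08, although its cerebellum values were -0.03, 0.00 and -0.21 on arrays 1 to 3 and 0.26 on DS2. Its fitted ratio was 0.20 in cerebellum and -0.88 in cortex.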

How the results depend on the processing

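For the cerebellum ratio, 255 features passed with the repeated array, 48 without it, and 45 when the filter was also applied again (an alternative chosen after seeing the data). Leaving out one cerebellum replicate gave 20 to 52 features: 52 without replicate 1, 20 without replicate 2 and 27 without replicate 3. In these, 18, 9 and 11 of the 24 genes called in both fits still passed, and all kept their sign. Th, Rbm3, Elovl5, Msantd1 and Oog3 passed under all 16 alternatives for single genes. Without the channel 1 arrays of number 1 in every region 1026 passed, and with arrays scaled to one spread 142. The remaining fits gave 266 without the orientation term, 350 with the cerebellum replicates alone, 252 as deposited, 211 with a value in at least 2 cerebellum replicates, 305 with a value on all 5 arrays, 307 for single probes and 251 with robust moderation; 312 passed with the repeated array kept in cerebellum only (chosen after seeing the data).

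By correlations of replicate averages, and not by the labels, the replicate numbers paired cerebellum with hippocampus. For cortex and brain stem-diencephalon the check could not decide, because its averages include the repeated array, whose number is in doubt. On the channel 1 arrays of number 1, Eif2s3y was below 0 in every region. It was -0.77 in cerebellum, -1.36 in cortex, -1.29 in hippocampus and -0.65 in brain stem-diencephalon, but 1.71 on DS1 of cerebellum. With the replicate number as a block (correlation 0.23), 496 features passed in cerebellum, 9 against the mean of the other regions, 14 against cortex, 6 against hippocampus and 0 against brain stem-diencephalon. With the block and without the repeated array (chosen after seeing the data) these counts were 147, 11, 18, 5 and 2.

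Regional differences moved with single arrays. Cerebellum minus the mean of the others gave 1 feature; 3 without the repeated array, 0 to 1 with one replicate left out, 5 without the channel 1 arrays of number 1, 2 without orientation, 8 scaled and 0 with all 5 arrays required. Cerebellum minus cortex gave 4; 0 to 1 with one replicate left out, 9 without those arrays of number 1, and 2 with values in at least 2 replicates. Cerebellum minus hippocampus gave 0; 2 without the repeated array, 1 without arrays of number 1, 2 without orientation, 4 scaled and 1 with all 5 arrays required. Cerebellum minus brain stem-diencephalon gave 0, and 2 without the repeated array. The cause was not tested. No feature called in cerebellum changed sign under the alternatives run for single genes.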
